A study of Mus musculus with 21 samples.

Results

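The genes described here are 10 imprinted genes that act on growth or serve as classic reporters of imprinting: Igf2, H19, Igf2r, Airn, Cdkn1c, Grb10, Dlk1, Mest, Peg3 and Snrpn. They were taken by symbol from the 3 deposited gene tables. Snrpn has 2 rows with different Ensembl identifiers, which were kept apart, so the 10 symbols gave 11 rows of the 12404 genes listed in any table. All 11 rows are listed in each of the 3 tables, and all passed the filter on low values.

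Imprinted genes are expressed mainly from the copy inherited from one parent. DNA methylation laid down in the germ line, at control regions near the genes, marks the parental copies, and Dnmt1 copies those marks when cells divide. Several of the genes act on fetal growth in opposite directions, with Igf2 promoting it and Igf2r, Cdkn1c, Grb10 and H19 known to restrain it. The values below add both parental copies, so expression per allele was not measured.

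RNA was sequenced from mouse embryonic fibroblasts (MEFs) and from MEFs early in reprogramming. The MEFs came from ICR embryos of day 13.5, were at passage 2, and were infected with retroviral constructs for 48 hours. The reprogramming cells also received Sox2, Klf4, Oct4 and c-Myc, are called SKOM cells here, and were taken at day 5 from medium with vitamin C (Vc+) or without it (Vc-). In each medium, SKOM cells carried Tet1CD, Tet1CD+Dmnt1 (spelled as in the labels), Tet1CD+shDnmt1, Dnmt1, shDnmt1, shp53+shDnmt1 or the control Flag+shLuc. MEFs carried Tet1-CD, Dnmt1, shDnmt1, shp53, shp53+shDnmt1 or Flag+shLuc, and another library of the MEF table is labelled 5C Flag+shLuc, a name the labels do not explain. Each of these 21 combinations had 1 library. In SKOM cells each construct was therefore tested as a term of an additive model that held the other constructs as further terms. Within a medium shp53+shDnmt1, the sole library with shp53, is taken up by its own term. The Tet1CD change there comes from libraries with and without Tet1CD that match in the other constructs. The Tet1CD construct holds Tet1 sequence (Tet1 oxidises methylated cytosine), and shDnmt1 and shp53 are hairpins against Dnmt1 and Trp53. All constructs came by retrovirus into cultures whose clonality and number of embryos the labels do not give.

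The start regions of the genes differ widely in CG content, the dinucleotide that carries DNA methylation. The 4 windows below are shown because they belong to the genes that rose with Tet1CD in Vc+ cells (Igf2, Igf2r and Dlk1) and to Peg3, which fell. Each covers 250 bases before to 50 bases after the RefSeq start (build GRCm38.p6, read 5′ to 3′ on the gene's strand), with CG in capitals. Igf2 lies at chr7:142657447-142657746 (minus strand), Igf2r at chr17:12769657-12769956 (minus), Dlk1 at chr12:109452573-109452872 (plus) and Peg3 at chr7:6730370-6730669 (minus).
Igf2: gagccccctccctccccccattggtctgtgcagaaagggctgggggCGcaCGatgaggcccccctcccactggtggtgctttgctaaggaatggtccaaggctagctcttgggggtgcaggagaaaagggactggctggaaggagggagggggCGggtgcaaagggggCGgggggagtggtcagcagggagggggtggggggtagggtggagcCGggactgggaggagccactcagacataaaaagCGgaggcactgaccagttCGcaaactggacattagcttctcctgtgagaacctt
Igf2r: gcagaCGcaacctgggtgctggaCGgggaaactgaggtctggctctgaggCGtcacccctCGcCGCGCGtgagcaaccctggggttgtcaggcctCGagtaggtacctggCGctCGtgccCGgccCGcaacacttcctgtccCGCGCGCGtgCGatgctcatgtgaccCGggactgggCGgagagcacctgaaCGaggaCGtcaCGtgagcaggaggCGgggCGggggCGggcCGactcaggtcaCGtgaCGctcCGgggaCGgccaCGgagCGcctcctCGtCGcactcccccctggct
Dlk1: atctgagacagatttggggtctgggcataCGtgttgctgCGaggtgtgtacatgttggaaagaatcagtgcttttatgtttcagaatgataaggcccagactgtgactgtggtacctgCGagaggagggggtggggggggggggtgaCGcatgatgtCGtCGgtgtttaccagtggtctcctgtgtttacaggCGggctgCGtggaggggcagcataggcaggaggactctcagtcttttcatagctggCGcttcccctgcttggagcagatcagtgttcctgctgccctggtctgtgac
Peg3: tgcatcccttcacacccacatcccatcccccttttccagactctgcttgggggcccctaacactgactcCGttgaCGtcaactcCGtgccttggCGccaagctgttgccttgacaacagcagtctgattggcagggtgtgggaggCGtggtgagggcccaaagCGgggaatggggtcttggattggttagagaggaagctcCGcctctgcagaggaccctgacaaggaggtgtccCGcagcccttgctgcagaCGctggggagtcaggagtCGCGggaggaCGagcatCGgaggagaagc

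Windows were found for 8 of the 10 symbols, and for 6 of them within 100 bases of the start given in the tables. No window was found for H19 and Cdkn1c, and those of Grb10 and Mest lay further than 100 bases from that start and were not used. Cdkn1c, Grb10 and Mest, which fell further than Peg3 in Vc+ cells, are thus not shown. The Igf2r window held 34 CG, a number reached by 7.73% of all 32851 windows, whereas those of Peg3, Dlk1 and Igf2 held 13, 9 and 7, against a median of 7. The Airn window held 3 and that of Snrpn (ENSMUSG00000102252) held 7. GGGCGG, the GC box, was counted on both strands and occurred 3 times at Igf2r, 2 times at Igf2 and once at Airn, with 35.7% of all windows holding it. TGCCGC, the hexamer known for ZFP57, occurred 1 time at Snrpn and in 11.6% of all windows. Both hexamers contain a CG. These are matches of letters in a window, and methylation was not measured.

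The deposited values are whole numbers that appear, from what their libraries share, to be already on a common scale inside each table, so depth is unknown, and no counting error could be given. Within a table the libraries share nearly the same sorted list of values, and the largest values come in steps of 10 genes, so equal high values in several libraries mean the same step. The 5C library and MEF Tet1-CD followed the shared list least, with another value than the control at 97.1% and 35.8% of ranks. As a check of the labels, Dnmt1 was 208 with shDnmt1 and 410 with shp53+shDnmt1 in MEFs, against 957 in the MEF control. It was 975 in the MEF library labelled Dnmt1, and in SKOM cells 2381 (Vc+) and 1001 (Vc-), against 2346 and 984 in the controls of those media, so those libraries are named by their label only. With shDnmt1 Dnmt1 was 1154 (Vc+) and 527 (Vc-). Trp53 was 157 and 186 in the MEF libraries with shp53, against 1008 in the control, and 621 (Vc+) and 453 (Vc-) with shp53+shDnmt1, against 1194 and 873 in the controls. Tet1 was 2140 to 3129 in the 6 SKOM libraries with Tet1CD, against 11 to 88 in the 8 without it, and is not listed in the MEF table. Fibroblast markers were listed in every table (7 or 8 of 8), and none of the 5 pluripotency markers was listed in any.

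**Figure D1:**
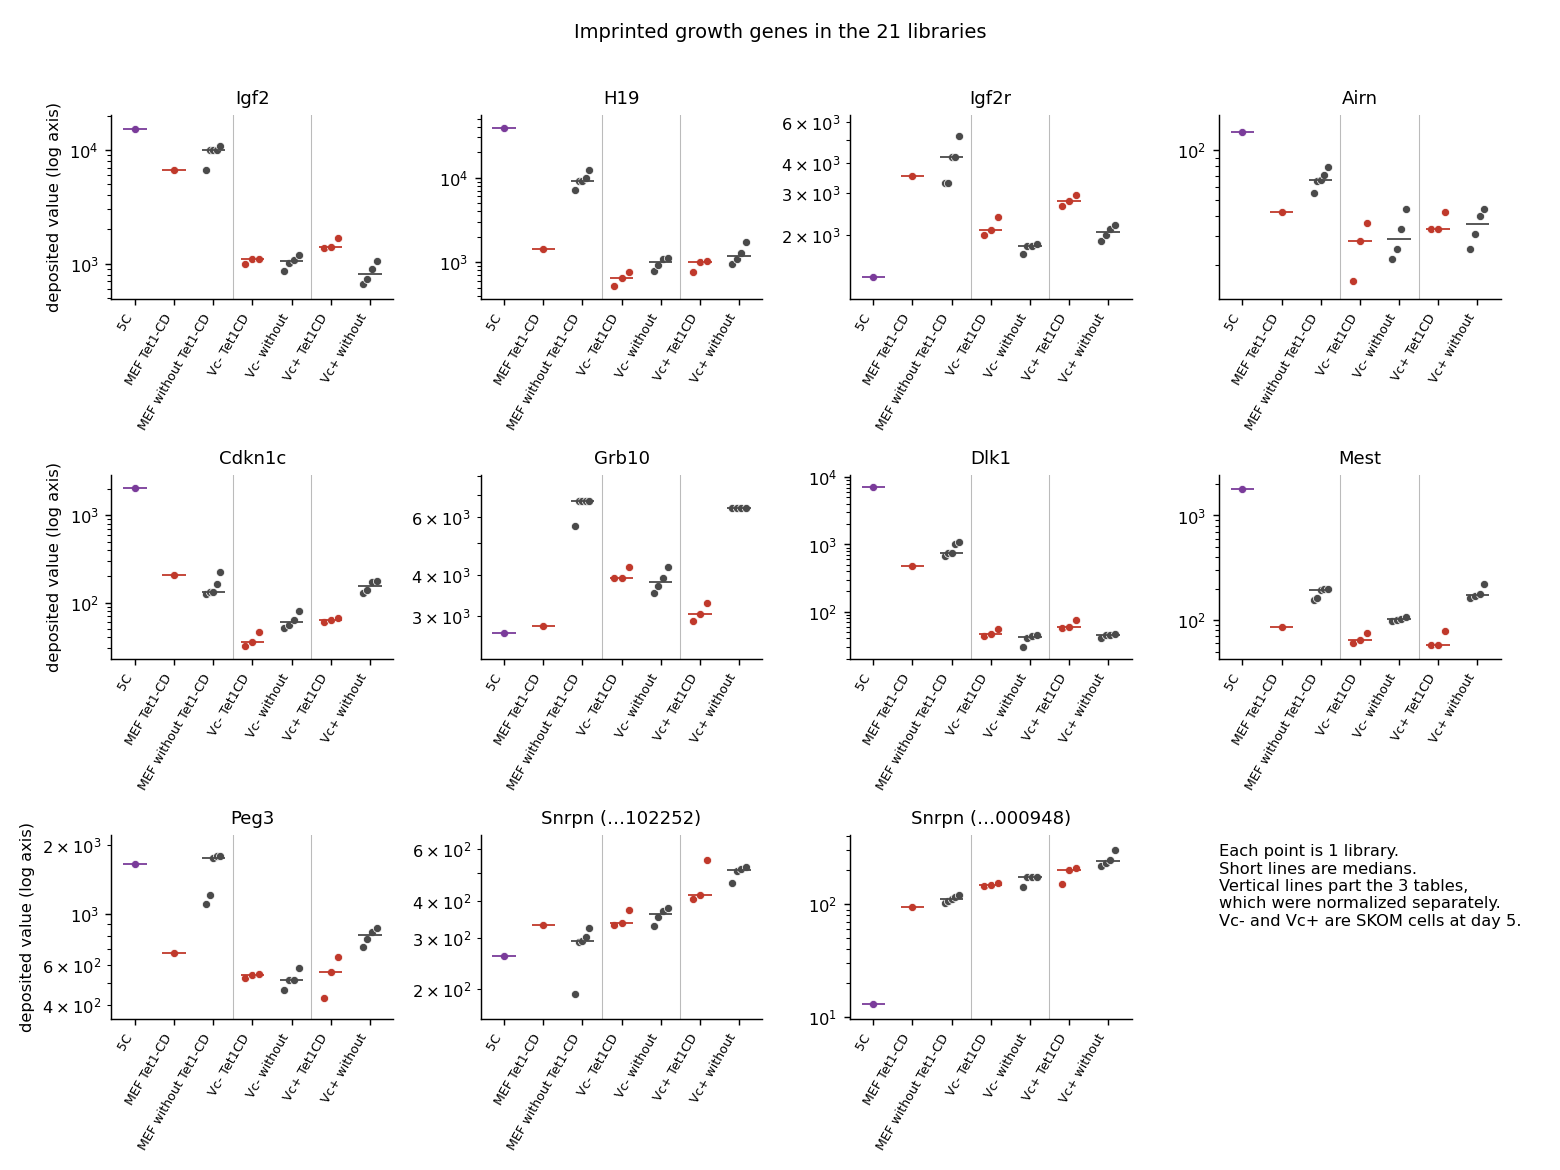
Deposited value (log axis) of the 11 rows in the 21 libraries, each point 1 library and each short line the median of its group. Vertical lines part the MEF, Vc- and Vc+ tables, which appear to have been normalized separately. In Vc+ cells the Tet1CD libraries lie apart from the others for Cdkn1c, Grb10, Mest, Peg3, Igf2, Igf2r, Dlk1 and Snrpn ENSMUSG00000000948, as for 56.2% of all genes. The 5C library lies far above the MEF libraries for Cdkn1c, Dlk1 and Mest, and it lies above them for 36.3% of all genes.

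With Tet1CD, these genes moved in opposite directions in Vc+ SKOM cells. Igf2, its receptor Igf2r and Dlk1 rose, while Cdkn1c, Grb10, Mest and Peg3 fell, and H19, Airn and both Snrpn rows did not pass the test (limma, Benjamini-Hochberg adjusted p under 0.05). The 3 higher and 4 lower rows stand against 44.2% of all 12021 genes passing in that medium, 20.7% higher and 23.6% lower, so a share of this order was common among all genes. In Vc- cells 1 row rose (Igf2r) and 2 fell (H19 and Mest), with 14.6% of all 10722 genes passing, 7.25% higher and 7.38% lower. The median change of the 11 rows was -0.32 in Vc+ and -0.05 in Vc- cells on the log2 scale, against -0.07 and -0.01 over all genes. The values of the libraries with Tet1CD and without it did not overlap for 8 of the 11 rows in Vc+ cells, where 56.2% of all genes had that property, and for 4 rows in Vc- cells, where 31% had it. Changes are differences of log2(value + 5), which understates the change of low genes, and are given with the standard error (SE). Each medium alone left 2 residual degrees of freedom, and that spread includes any departure from additivity of the constructs.

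Cdkn1c and Grb10 restrain growth at different points and fell furthest together with Mest. Cdkn1c encodes a cyclin-dependent kinase inhibitor. In Vc+ cells it had 67, 63 and 60 with Tet1CD, Tet1CD+Dmnt1 and Tet1CD+shDnmt1, against 138, 130, 170 and 179 with Dnmt1, shDnmt1, shp53+shDnmt1 and Flag+shLuc. The highest library with Tet1CD was thus below the lowest without it. The change was -1.16 ± 0.12 (limma, adjusted p = 0.00126). In Vc- cells the ranges were 32 to 46 with Tet1CD, against 51 to 81 without it, again with no overlap, but the change of -0.54 ± 0.17 did not pass (limma, adjusted p = 0.0801).

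Grb10 encodes an adaptor protein that dampens insulin and IGF receptor signalling. It had 3025, 3267 and 2890 with Tet1CD, Tet1CD+Dmnt1 and Tet1CD+shDnmt1 in Vc+ cells, against 6411 in each of the 4 libraries without Tet1CD. The 4 equal values share 1 step of 10 genes, so the spread without Tet1CD is understated. The change was -1.07 ± 0.08 (limma, adjusted p = 0.000554). In Vc- cells the values overlapped, with 3898 to 4230 with Tet1CD, against 3521 to 4230 without it, and the change of 0.07 ± 0.05 did not pass (limma, adjusted p = 0.366).

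Igf2 and H19 are neighbours on chromosome 7 (mm10, 142650766 to 142657496 and 142575529 to 142578143), share enhancers and a CTCF-bound control region, and are expressed from opposite parental copies. Igf2 encodes a fetal growth factor. In Vc+ cells it had 1366, 1401 and 1693 with Tet1CD, Tet1CD+Dmnt1 and Tet1CD+shDnmt1, against 737, 893, 662 and 1054 with Dnmt1, shDnmt1, shp53+shDnmt1 and Flag+shLuc. The groups did not overlap, and Igf2 rose by 0.74 ± 0.13 (limma, adjusted p = 0.00655). In Vc- cells it had 1003 to 1111 with Tet1CD, against 868 to 1187 without it, and a change of -0.03 ± 0.08 (limma, adjusted p = 0.834).

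H19 encodes a long non-coding RNA. In Vc- cells it had 762, 659 and 526 with Tet1CD, Tet1CD+Dmnt1 and Tet1CD+shDnmt1, against 933, 783, 1121 and 1086 with Dnmt1, shDnmt1, shp53+shDnmt1 and Flag+shLuc. These groups did not overlap, and H19 fell by 0.53 ± 0.06 (limma, adjusted p = 0.0075). In Vc+ cells it had 761 to 1042 with Tet1CD, against 958 to 1732 without it. That overlap went with a change of -0.40 ± 0.24 (limma, adjusted p = 0.219), which was -0.01 without Flag+shLuc (1732) or without Tet1CD (761) and -0.63 without shDnmt1 or Tet1CD+shDnmt1. The quotient of the Igf2 value over the H19 value within a library was 1.34 to 1.80 with Tet1CD, against 0.521 to 0.932 without it in Vc+ cells. In Vc- cells it was 1.32 to 2.11 with Tet1CD, against 0.774 to 1.37 without it. The quotient was not tested. A common factor for a library cannot move it, but setting values from a shared sorted list can.

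Igf2r encodes the receptor that takes Igf2 into the cell for degradation, and Airn is the antisense RNA known to silence Igf2r on the paternal copy. Igf2r had 2950, 2775 and 2644 in Vc+ cells with Tet1CD, Tet1CD+Dmnt1 and Tet1CD+shDnmt1, against 2109, 1886, 2000 and 2196 with Dnmt1, shDnmt1, shp53+shDnmt1 and Flag+shLuc. In Vc- cells it had 2084, 1997 and 2386, against 1663, 1784, 1784 and 1827 in the same order. The groups did not overlap in either medium. Igf2r rose by 0.44 ± 0.08 in Vc+ cells (limma, adjusted p = 0.00716) and by 0.29 ± 0.06 in Vc- cells (limma, adjusted p = 0.0301). Airn was low, with 33 to 42 with Tet1CD, against 25 to 44 without it in Vc+ cells, and 16 to 36 with Tet1CD, against 22 to 44 without it in Vc- cells. Its changes of -0.08 ± 0.20 and -0.27 ± 0.22 did not pass (limma, adjusted p = 0.784 and 0.426). The genes overlap over 28354 bases on opposite strands (mm10 chromosome 17, Igf2r 12682406 to 12769664 and Airn 12741311 to 12860122), and without a stated strand setting reads from the overlap cannot be told apart.

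Mest encodes a protein of the hydrolase family and is expressed from the paternal copy. It had 58, 79 and 58 in Vc+ cells with Tet1CD, Tet1CD+Dmnt1 and Tet1CD+shDnmt1, against 162, 168, 219 and 179 with Dnmt1, shDnmt1, shp53+shDnmt1 and Flag+shLuc. In Vc- cells it had 65, 75 and 60, against 97, 103, 100 and 107 in the same order. Every library with Tet1CD was below every library without it in both media. Mest fell by 1.33 ± 0.14 in Vc+ cells (limma, adjusted p = 0.00135) and by 0.59 ± 0.11 in Vc- cells (limma, adjusted p = 0.022).

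Peg3 encodes a zinc finger protein expressed from the paternal copy. It had 430, 646 and 558 in Vc+ cells with Tet1CD, Tet1CD+Dmnt1 and Tet1CD+shDnmt1, against 835, 719, 781 and 870 with Dnmt1, shDnmt1, shp53+shDnmt1 and Flag+shLuc. The groups did not overlap, and Peg3 fell by 0.58 ± 0.15 (limma, adjusted p = 0.0222). The change was -0.37 without Flag+shLuc or Tet1CD and -0.69 without Dnmt1 or Tet1CD+Dmnt1, and it did not pass in any of these 4 fits (adjusted p = 0.0571 to 0.0631). In Vc- cells its values of 526 to 545 with Tet1CD lay inside the range of 464 to 582 without it, with a change of 0.11 ± 0.06 (limma, adjusted p = 0.263).

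Dlk1 encodes a membrane protein related to Notch ligands. It had 58, 74 and 60 in Vc+ cells with Tet1CD, Tet1CD+Dmnt1 and Tet1CD+shDnmt1, against 45, 41, 47 and 45 with Dnmt1, shDnmt1, shp53+shDnmt1 and Flag+shLuc. It rose by 0.50 ± 0.16 (limma, adjusted p = 0.0454), the weakest call of the 7. It passed in none of the 6 fits that left out 1 library other than shp53+shDnmt1. Their adjusted p reached up to 0.271, with changes of 0.42 to 0.58. It passed without shp53+shDnmt1, but omitting that library, the sole carrier of shp53 in this medium, cannot move the change. In Vc- cells it had 44 to 55 with Tet1CD, against 30 to 45 without it, and a change of 0.32 ± 0.19 (limma, adjusted p = 0.284).

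The 2 Snrpn rows overlap over 22570 bases of chromosome 7 on the same strand, so how reads were split between them bears on each. GENCODE M21 gives the name Snrpn to ENSMUSG00000102252 and the name Gm38393 to ENSMUSG00000000948, and Snrpn itself encodes a protein of the splicing machinery. In Vc+ cells the row ENSMUSG00000102252 had 406 to 554 with Tet1CD, against 460 to 523 without it, and ENSMUSG00000000948 had 150 to 211 with Tet1CD, against 219 to 305 without it. The second row did not overlap between the groups, yet its change of -0.32 ± 0.11 did not pass (limma, adjusted p = 0.0575). The sum of both rows was 607 to 704 with Tet1CD, against 679 to 821 without it in Vc+ cells, and 482 to 520 with Tet1CD, against 471 to 554 without it in Vc- cells.

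**Figure D2:**
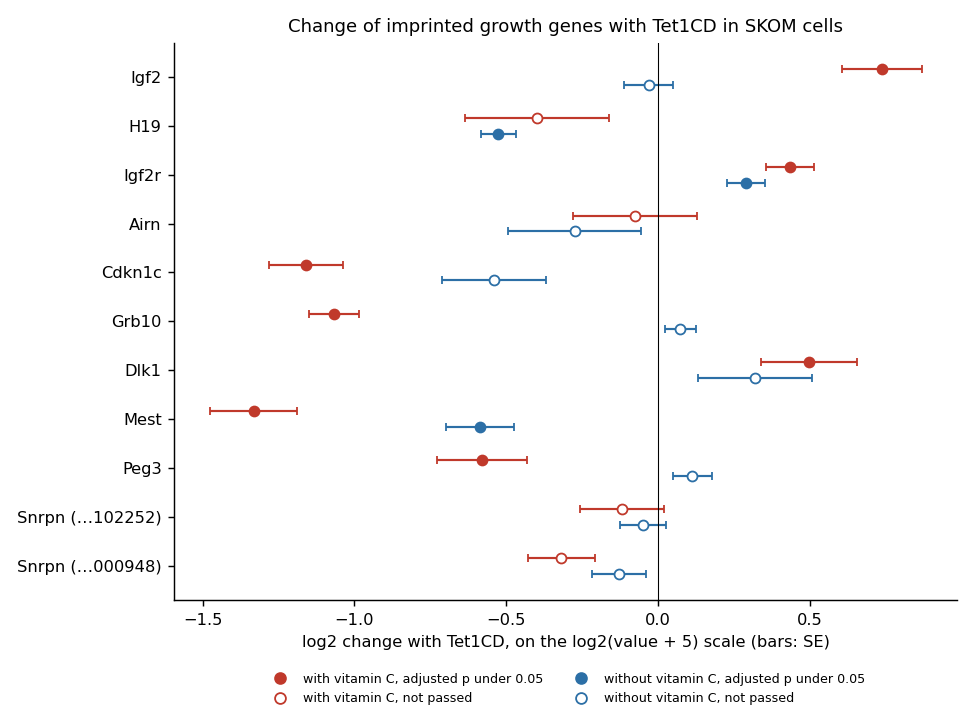
Change of each row with Tet1CD (x axis, log2 with SE bars) in Vc+ cells (red, upper point) and Vc- cells (blue, lower point), fitted over 3 libraries with Tet1CD and 4 without it in each medium. Of the 4, shp53+shDnmt1 has its own term and does not move the change. Filled points passed at an adjusted p under 0.05. Grb10 and Mest lie at -1.07 and -1.33 in Vc+ cells, and Grb10 at 0.07 in Vc- cells.

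For 4 genes the Tet1CD change itself differed between the media. The difference, Vc+ change minus Vc- change, was -1.14 ± 0.10 for Grb10 (limma, adjusted p = 0.000333), -0.74 ± 0.19 for Mest (adjusted p = 0.0294), -0.69 ± 0.17 for Peg3 (adjusted p = 0.0252) and 0.77 ± 0.17 for Igf2 (adjusted p = 0.0152). Such differences passed for 16.9% of all 10711 genes, 8.57% higher and 8.28% lower. Each medium has its own table, so a difference between media cannot be told apart from one of normalization between tables. For Cdkn1c the difference of -0.62 ± 0.22 did not pass (adjusted p = 0.0871), nor did that of H19, 0.13 ± 0.27 (adjusted p = 0.781), so a call in a single medium does not separate the media for these genes. Over both media together, in the additive model with 8 residual degrees of freedom, 2 rows rose and 5 fell. Of all genes 45.2% passed, 20.3% higher and 24.9% lower. The rows that rose were Dlk1 (0.41) and Igf2r (0.36). Those that fell were Cdkn1c (-0.85), H19 (-0.46), Grb10 (-0.50), Mest (-0.96) and Snrpn ENSMUSG00000000948 (-0.22). Over 14 fits that each left out 1 library, Grb10 passed in 7, Snrpn ENSMUSG00000000948 in 4, Dlk1 in 13 and the other called rows in all.

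These calls rest on few libraries. Within a medium, leaving out shp53+shDnmt1 cannot move a Tet1CD change, since shp53 has its own term. Leaving out either library of a pair that differs only by Tet1CD gave the same change. Without the pair of libraries labelled Dnmt1 and Tet1CD+Dmnt1, an alternative chosen after seeing the data, Cdkn1c, Grb10 and Mest were the 3 rows still past the threshold in Vc+ cells, none was in Vc- cells, and Grb10 was the only difference between media. Leaving out either of those libraries alone left the same 3 of the 7 calls in Vc+ cells, and leaving out Flag+shLuc or Tet1CD left 5. In Vc- cells, leaving out any of Dnmt1, Tet1CD+Dmnt1, shDnmt1 or Tet1CD+shDnmt1 left none of the 3 calls. Among the differences between media, leaving out the Vc- library Flag+shLuc, Tet1CD, shDnmt1 or Tet1CD+shDnmt1 left 1, Vc- Dnmt1 or Tet1CD+Dmnt1 left 2, and Vc+ Dnmt1 or Tet1CD+Dmnt1 left 3. No called row changed sign in these fits. H19 gained a difference between media of 0.52 when Vc+ Flag+shLuc or Vc+ Tet1CD was left out (limma, adjusted p = 0.0212 for each), against adjusted p of 0.774 to 0.980 in the other fits; those omissions still left 4 differences, with H19 in place of Mest.

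Markers of other cells moved with Tet1CD as well. The summed macrophage markers (4 of 6 listed, Csf1r and Adgre1 not listed) were 1952 to 2614 in Vc+ libraries with Tet1CD, against 293 to 369 without it, and in Vc- cells (3 of 6 listed) 541 to 633 with Tet1CD, against 258 to 337 without it. Most of the Vc+ sum was Laptm5, 1578 to 2156 with Tet1CD, against 230 to 277 without it. All listed genes reach 32 in 2 or more libraries. Ptprc in both media, and Lyz2 and the fibroblast marker Pdgfra in Vc+ cells, reached 32 only with Tet1CD. The epithelial marker Cldn3 reached 32 only without Tet1CD in both media. Epithelial markers (4 of 5) were 388 to 420 with Tet1CD, against 653 to 1312 without it in Vc+ cells. In Vc- cells they overlapped, with 146 to 221 with Tet1CD, against 218 to 401 without it. Fibroblast markers (8 of 8) were 44231 to 50316 with Tet1CD, against 28731 to 47333 without it in Vc+ cells. The fibroblast sum depends on Vim, which was 28926 in Flag+shLuc and shDnmt1 and 13571 to 18119 in the other Vc+ libraries. Tested singly, 6 of the 8 fibroblast markers rose with Tet1CD and none fell, where 20.7% and 23.6% of all genes did (limma). The muscle marker Des was 234 to 275 with Tet1CD, against 10 to 46 without it in Vc+ cells, and 51 to 62, against 20 to 42 in Vc- cells, the other 6 muscle markers not being listed. The endothelial marker Tek, the only 1 of 4 listed, was 386 to 400 with Tet1CD, against 544 to 634 without it in Vc+ cells, and 284 to 331, against 297 to 317 in Vc- cells. Their part in the results was not tested. In cultures such as these, fewer cells of a type and less RNA per cell cannot be told apart.

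In MEFs, 4 of the genes were at least 2-fold lower in the Tet1-CD library than in the control and none was higher. H19 was 1439 with Tet1-CD, against 9045 in the control and 7163 to 12476 in the 5 libraries without Tet1-CD, a log2 ratio of -2.65. Peg3 was 673, against 1788 in the control (log2 ratio -1.40), Grb10 2796, against 6713 (-1.26), and Mest 85, against 200 (-1.19). Each of the 4 lay below all 5 libraries without Tet1-CD, as did Airn, Dlk1 and Snrpn ENSMUSG00000000948, and Snrpn ENSMUSG00000102252 lay above them. A place outside the other libraries was common for this library, since 26.5% of all 11152 genes lay below, 24.5% above and 51% either. In this pair of libraries 2.13% of all 11151 genes were at least 2-fold lower, 2.29% higher and 4.41% either. The comparison has 1 library a side and no test.

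The remaining rows stayed within 2-fold in Tet1-CD MEFs. Igf2 was 6696 with Tet1-CD, against 9988 in the control, and the Igf2 over H19 quotient was 4.65, against 0.670 to 1.39 in the 5 MEF libraries without Tet1-CD. Cdkn1c was 206, against 132 in the control (log2 ratio 0.62), and Igf2r was 3536, against 5203 (-0.56), both inside the ranges of the libraries without Tet1-CD, 127 to 227 and 3320 to 5203. Airn was 42, against 79 in the control and 55 to 79 without Tet1-CD (log2 ratio -0.84), and Dlk1 was 478, against 759 and 672 to 1094 (-0.66). The Snrpn rows were 332, against 293 (0.18), and 95, against 115 (-0.26). Of the 7 rows called in Vc+ SKOM cells, Grb10, Mest and Peg3 had the same sign in MEFs, and Igf2, Igf2r, Dlk1 and Cdkn1c the opposite one. Macrophage markers (5 of 6 listed) summed to 1382 in the Tet1-CD MEF library, against 100 to 983 without it, and the 1 listed muscle marker (Des) was 817, against 62 to 287. The 1 listed epithelial marker (Krt18) was 134, against 10 to 27, and the 1 listed endothelial marker (Kdr) 32, against 86 to 306. Krt18 reached 32, as all listed genes do in 2 or more libraries, only in this library and in 5C (33). Its listing is thus not independent of its high value. The part of these cells in the results was not tested.

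The 5C library, whose column header names day 4, stood far from the MEFs, for which no day is given. Cdkn1c was 2049 in 5C, against 132 in the MEF control and 127 to 227 in the 6 MEF libraries, which is 15.0-fold by the values plus the pseudocount of 5. Dlk1 was 7153, against 759 (range 478 to 1094), and Mest 1788, against 200 (range 85 to 200), which are 9.37-fold and 8.75-fold. H19 was 38803, the highest value of the table, against 9045 (range 1439 to 12476), so its 4.29-fold ratio is limited by that ceiling. Igf2 was 15100, against 9988, and Airn 128, against 79, both above all 6 MEF libraries but under 2-fold. In all, 6 rows lay above and 3 below the other 6 libraries, as 36.3% and 43.8% of all 11152 genes did (80.1% either).

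Lower in 5C were Igf2r with 1321, against 5203 (range 3320 to 5203), and Grb10 with 2662, against 6713 (range 2796 to 6713). Snrpn ENSMUSG00000000948 was 13, against 115, while ENSMUSG00000102252 was 259, against 293. Peg3 was 1650, against 1788, inside the range of the MEF libraries. In all, 4 rows were at least 2-fold higher and 3 lower, but 48.1% of all 11151 genes differed that much, 20.3% higher and 27.9% lower, so 7 of 11 is not far from the rest of the table. The median log2 ratio was 0.60 over the 11 rows and -0.14 over all genes. Macrophage markers summed to 4621 in 5C, against 100 to 1382 in MEFs, and fibroblast markers to 136837, against 56337 to 98975. In 5C the fibroblast markers Vim, Col3a1 and Col1a2 were each at the ceiling of 38803. Against the MEF control, Col3a1 and Pdgfra were at least 2-fold higher, while Col1a1, Thy1, Pdgfrb and S100a4 were lower by less than 2-fold. The part of these markers was not tested.

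**Figure D3:**
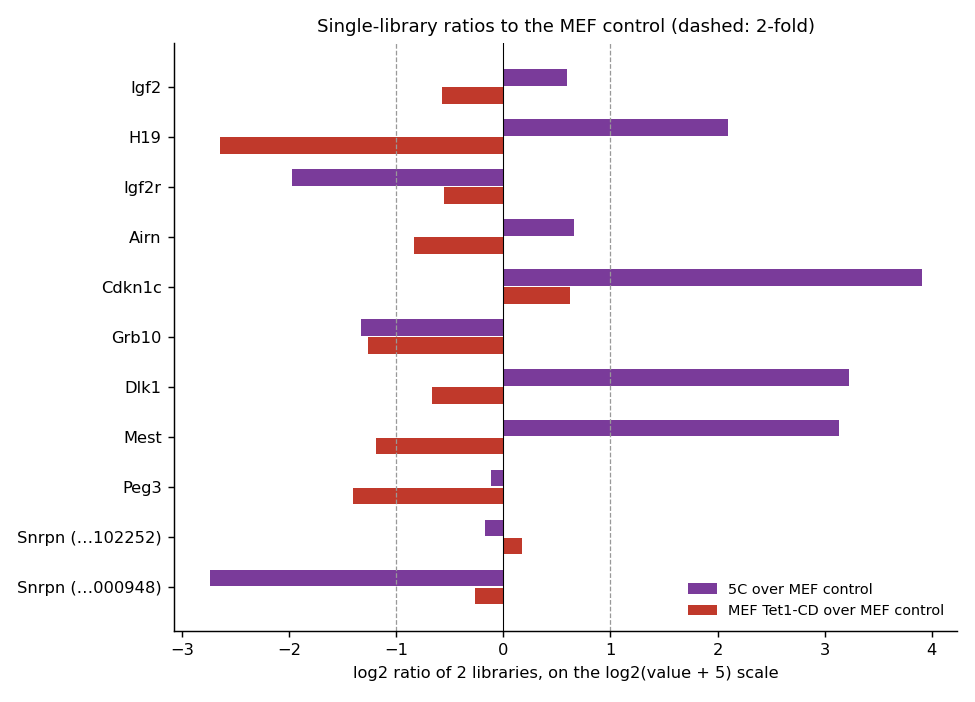
Log2 ratio of a single library to the MEF control (x axis) for 5C (purple, upper bar) and MEF Tet1-CD (red, lower bar), with dashed lines at 2-fold. Cdkn1c, Dlk1 and Mest have ratios of 3.91, 3.23 and 3.13 in 5C, and H19 points in opposite directions, with 2.10 in 5C and -2.65 in MEF Tet1-CD. Both comparisons use the same control library.

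The hairpins and the Dnmt1 label gave no call among these genes. In SKOM cells no row passed for shDnmt1, where 2 of all 10711 genes did (0.0187%), for the libraries labelled Dnmt1, where none did, or for shp53, where 1 did (0.00934%) (limma, Benjamini-Hochberg). Genes with an unadjusted p under 0.05 numbered 383, 84 and 1129. The smallest unadjusted p among the members was that of Snrpn ENSMUSG00000000948 with shDnmt1 (0.26 ± 0.10), and H19 came next with -0.36 ± 0.16, an interval of 2 SE either side of -0.68 to -0.05. Igf2 had -0.43 ± 0.23 and H19 0.36 ± 0.21 with shp53 (limma, adjusted p = 0.521 and 0.554). No member passed for the differences of shDnmt1 between media (no gene called, 408 with an unadjusted p under 0.05), of shp53 between media (0.0373% of genes called) or of Tet1CD with and without shDnmt1 (no gene called, 305 with an unadjusted p under 0.05). These fits left 4, 4 and 6 residual degrees of freedom, so the lack of a call does not show the lack of a difference. The shp53 hairpin in SKOM cells came only together with shDnmt1.

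In MEFs none of the 11 rows reached 1.5-fold the same way in both pairs of libraries that differ by shDnmt1, where 1.49% of all genes did (0.699% higher, 0.789% lower). The same held for shp53, where 12.7% did (6.28% higher, 6.46% lower). None reached 2-fold in the library labelled Dnmt1, where 1.1% did (0.592% higher, 0.511% lower). With shDnmt1, Dlk1 was 1094 with the hairpin, against 759 in the control, and 1008 with shp53+shDnmt1, against 672 with shp53. Its log2 ratios were 0.52 and 0.58. Peg3 was 1206 with shp53, against 1788 in the control, and 1106 with shp53+shDnmt1, against 1761 with shDnmt1, log2 ratios of -0.57 and -0.67.

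Between SKOM cells and MEFs the growth factor, H19, Dlk1 and Peg3 differed most. The tables appear to have been normalized separately. Log2 ratios of libraries with the same construct were therefore centred on the median gene of each pair and not tested. The medians removed were 0.24 to 0.31 for Vc+ over MEF and -0.30 to -0.27 for Vc- over MEF. Dlk1 had the largest ratio, a median of -4.24 over 5 pairs in Vc+ cells (range -4.88 to -3.17) and -4.04 in Vc- cells (range -4.21 to -2.73). Its deposited values were 41 to 74 in Vc+ cells and 30 to 55 in Vc- cells, against 478 to 1094 in MEFs. Igf2 had medians of -3.62 and -2.79, with 662 to 1693 in Vc+ and 868 to 1187 in Vc- cells, against 6696 to 10838 in MEFs. H19 had medians of -3.19 and -2.85, and its smallest ratios, -1.15 and -0.63, came from the Tet1CD pair, where the MEF value was 1439.

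Peg3 had median ratios to MEFs of -1.34 in Vc+ cells and -1.49 in Vc- cells. In Vc+ cells Igf2r (-1.32) and Airn (-1.08) were also lower in all 5 pairs with a median of at least 2-fold. Thus 6 of 11 rows were lower in Vc+ and 4 in Vc- cells, where 10.8% and 7.46% of all genes were. Genes higher by the same rule made up 6.72% and 6.02%, and either direction 17.5% and 13.5%. Both comparisons use the same MEF libraries. Both Snrpn rows were the only members higher in all 5 pairs in each medium, with medians of 0.42 and 0.70 in Vc+ cells and 0.50 and 0.88 in Vc- cells, under 2-fold. All fibroblast markers but 1 (7 of 8 in Vc+ and 6 of 7 in Vc- cells) were lower in SKOM cells by the same rule, and their part in these ratios was not tested.

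Between Vc+ and Vc- libraries no member met this rule, 0 of 11 rows over 7 pairs, where 0.607% of all genes met it, 0.392% higher and 0.215% lower. Igf2r was the only member with the same direction in all 7 pairs, with a median log2 ratio of -0.30 (range -0.49 to -0.02). Igf2 was lower in 6 of 7 pairs (median -0.74) and Cdkn1c higher in 6 of 7 (median 0.46), while Grb10 ranged from -1.07 to 0.29.

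**Figure D4:**
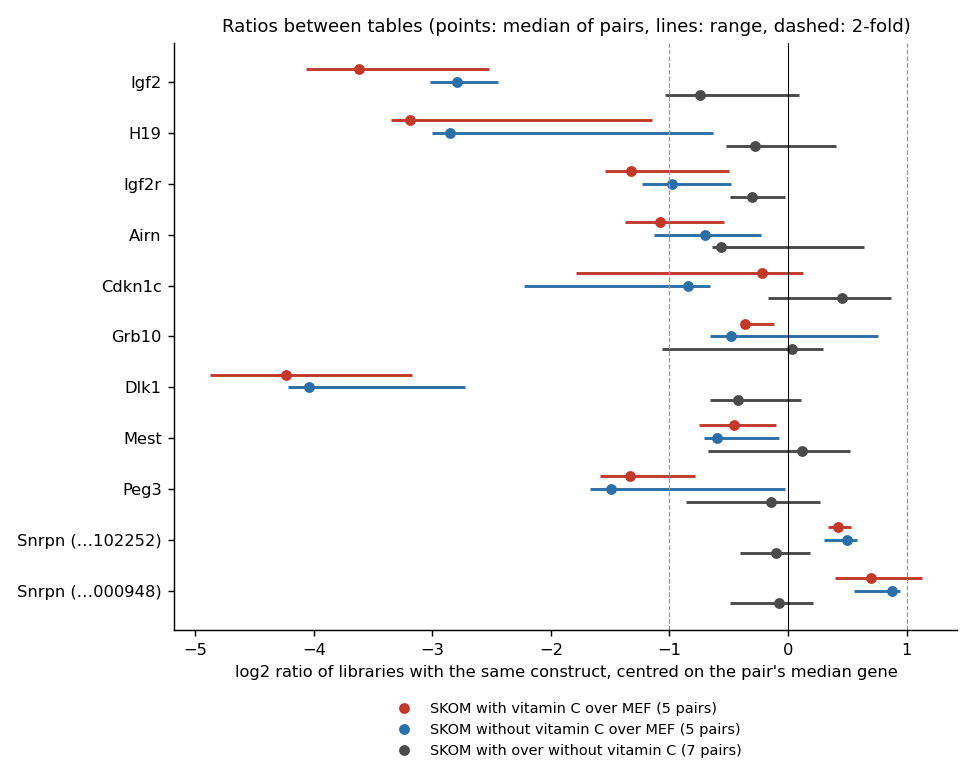
Median (points) and range (lines) over pairs of libraries with the same construct of the centred log2 ratio (x axis), for SKOM Vc+ over MEF (red, 5 pairs), SKOM Vc- over MEF (blue, 5 pairs) and SKOM Vc+ over SKOM Vc- (grey, 7 pairs), with dashed lines at 2-fold. Dlk1, Igf2 and H19 have medians between -4.24 and -2.79 against MEFs, and every vitamin C median lies within 2-fold.

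Some members followed each other across the 14 SKOM libraries once each table was centred on its mean. These libraries share constructs, tables and the Tet1CD split, so Pearson's r is a description of 14 libraries. Cdkn1c and Mest had r = 0.90, Grb10 and Mest 0.86, Igf2r and Mest -0.90, and Grb10 and Igf2 -0.86. Among 10104 genes compared, the gene most like Mest was Atxn7l2 (r = 0.98), that most like Grb10 was Fam122b (0.97), that most like Cdkn1c was Nrm (0.97), and that most like Igf2 was Tnfaip1 (0.97). Igf2r was most like Ctsk (0.96), Peg3 most like Smarcc2 (0.95), Dlk1 and H19 most like Fam53b and Kif18b (0.92 each), the Snrpn rows most like Nupl1 (0.91) and Fam199x (0.95), and Airn most like Smg8 (0.76).

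Other genes of the same pathways were read from lists. Of 55 other imprinted genes 31 were listed, and in Vc+ cells 11 rose and 5 fell with Tet1CD (limma), where 20.7% and 23.6% of all genes did, so the share called is near the 44.2% over all genes. Ddc, a decarboxylase that lies beside Grb10, rose by 1.21 ± 0.10, Zdbf2 by 0.93 ± 0.15, Peg10 by 0.87 ± 0.09, Ndn by 0.86 ± 0.09 and Osbpl5 by 0.84 ± 0.09. Slc38a4, an amino acid transporter, fell by 1.03 ± 0.12, Peg12 by 1.03 ± 0.17, Ppp1r9a by 0.71 ± 0.15, Nnat by 0.67 ± 0.16 and Nap1l4 by 0.38 ± 0.10. Their median change was 0.09, against -0.07 over all genes. In Vc- cells 4 rose and 2 fell, where 7.25% and 7.38% of all genes did.

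**Figure D5:**
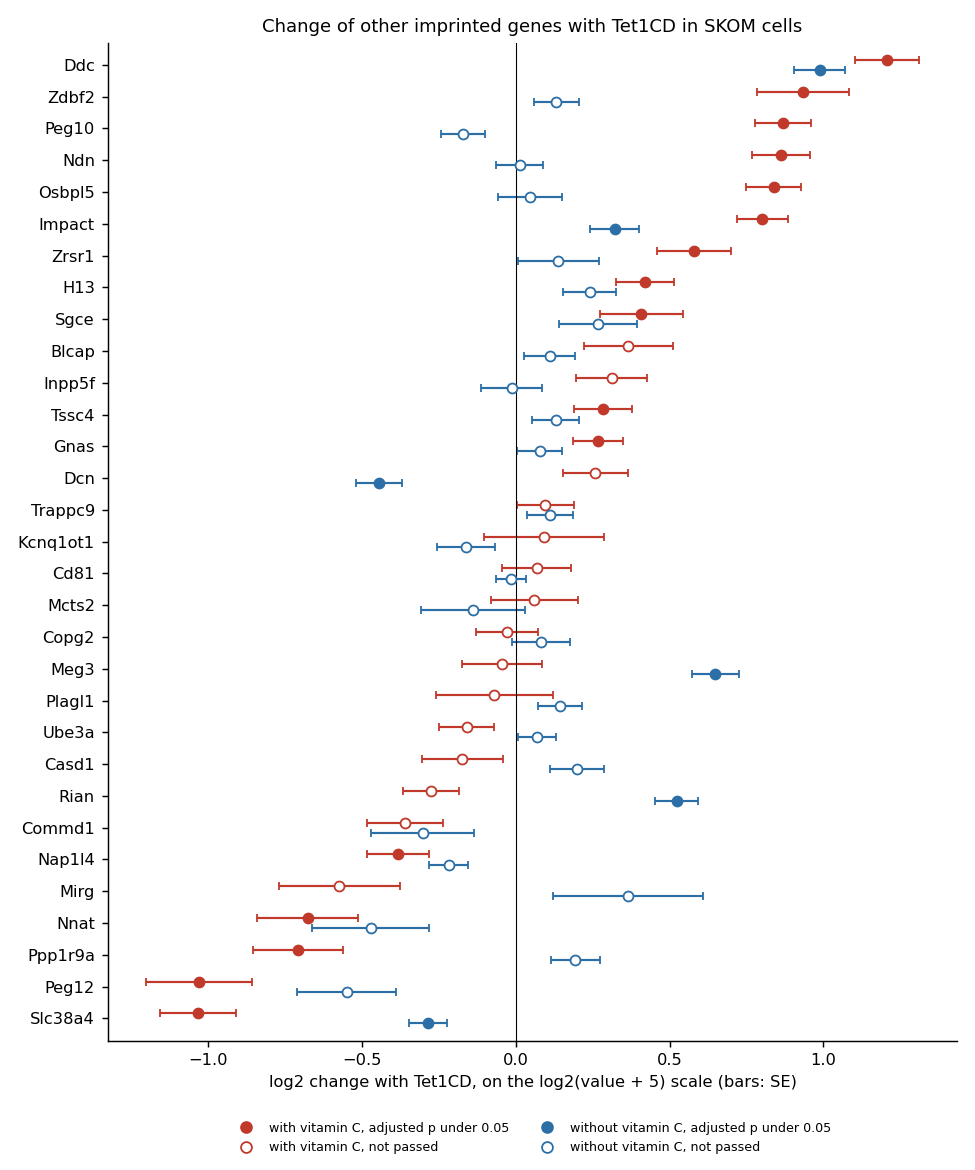
Change of 31 other imprinted genes with Tet1CD (x axis, log2 with SE bars) in Vc+ cells (red, upper point) and Vc- cells (blue, lower point), with filled points past an adjusted p of 0.05 and genes ordered by the Vc+ change. Ddc is high in both media, at 1.21 and 0.99, and Meg3 and Rian are past the threshold in Vc- cells only.

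The non-coding RNAs Meg3, Rian and Mirg are neighbours of Dlk1 and are expressed from the maternal copy. In Vc- cells Meg3 rose by 0.65 ± 0.08 (limma, adjusted p = 0.0075) and Rian by 0.52 ± 0.07 (adjusted p = 0.00998). In Vc+ cells their changes of -0.04 ± 0.13 and -0.28 ± 0.09 did not pass (adjusted p = 0.799 and 0.0506). The Vc+ change minus the Vc- change was -0.69 ± 0.16 for Meg3 (adjusted p = 0.0199) and -0.80 ± 0.11 for Rian (adjusted p = 0.00302), while that of Dlk1 was 0.18 ± 0.26 (adjusted p = 0.673). In 5C, Dlk1, Meg3 and Mirg were higher than in the MEF control (7153, 4674 and 409, against 759, 2323 and 112) and Rian was lower (820, against 3463).

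Of 14 partners of IGF signalling 13 were tested in SKOM cells, and in Vc+ cells 5 rose with Tet1CD and none fell, where 20.7% of all genes rose and 23.6% fell. They were the IGF binding proteins Igfbp7 (1.67 ± 0.15), Igfbp6 (1.57 ± 0.09), Igfbp5 (0.77 ± 0.11) and Igfbp3 (0.71 ± 0.10) and the receptor substrate Irs1 (0.90 ± 0.14). In Vc- cells, where 7.25% of all genes rose, Igfbp7 was the 1 partner that did (0.69 ± 0.09, limma, adjusted p = 0.00982). In 5C, Igf1 was 827, against 26 in the MEF control, and Igf1r was 95, against 715. Of 14 tested regulators of imprinted loci in Vc+ cells, 10 fell, where 23.6% of all genes did, among them Tet2 (-1.36 ± 0.13), the Dnmt1 partner Uhrf1 (-1.21 ± 0.09), Dnmt3b (-1.19 ± 0.20), the ZFP57 cofactor Trim28 (-1.04 ± 0.10) and Dnmt1 itself (-0.96 ± 0.09), and the only one higher was Tet1, the gene of the construct. Among these 10, Dnmt3b had 15 to 25 with Tet1CD, against 48 to 55 without it in Vc+ cells. Only its libraries without Tet1CD reached the value that all listed genes reach in some libraries. The listing of Dnmt3b is thus not independent of its fall, and Dnmt3b was not tested in Vc- cells. In Vc- cells Uhrf1 (-0.45 ± 0.10) and Trim28 (-0.36 ± 0.09) fell, where 7.38% of all genes did.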

How the data were processed

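Total RNA was extracted with Trizol and made into libraries with a TruSeq RNA kit, per the labels' protocols. Bowtie, RSEM and the build mm10 are named in the submitters' processing notes; how they were used, the strand setting and the normalization method are not given there. The unit is a score: each deposited table holds whole numbers whose sorted lists are nearly shared between its libraries, from which a normalization by the authors within the table was inferred, so no count model was used. In each table, all genes reach 32 or more in 2 or more libraries.

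Fits used log2(value + 5) of genes whose mean over the fitted libraries was 10 or more. Tests were made in R 4.3.3 by limma 3.58.1 with an intensity trend, adjusted by Benjamini-Hochberg over all genes, with a threshold of 0.05: an additive model over the 14 SKOM libraries, models with interactions, and fits within each medium. The code was tested on simulated data. Since nothing in the labels marks libraries as separate cultures, the p-values speak of the spread among these libraries alone, which may be technical. MEF libraries and tables were compared by ratios, without tests. Groups came from the sample titles. The members, the lists and the design were chosen with earlier results of these data known. Genes named are the members, the targeted genes, up to 5 list members per direction past the threshold or fold, and the gene most like each member; Meg3, Rian, Mirg, Igf1 and Igf1r in the report were picked after their values were seen. Promoter windows are from RefSeq (GRCm38.p6). Alternatives were other pseudocounts (1 and 20), no filter or a mean of 50, no trend, no Dnmt1 term, no centring, and leaving out each library.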

Additional observations from a re-analysis of the deposited data

Results flagged for a closer look

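For 4 of the imprinted growth genes the change with Tet1CD differed between SKOM cells with vitamin C and without it, by a test of the difference itself (limma, interaction terms, Benjamini-Hochberg adjusted over 10711 genes). The Vc+ change minus the Vc- change was -1.14 for Grb10 (adjusted p = 0.000333), -0.74 for Mest (adjusted p = 0.0294), -0.69 for Peg3 (adjusted p = 0.0252) and 0.77 for Igf2 (adjusted p = 0.0152). Over all alternatives and libraries left out, the adjusted p was 0.000246 to 0.017 for Grb10, 0.0235 to 0.096 for Mest, 0.013 to 0.124 for Peg3 and 0.00521 to 0.12 for Igf2. Medium and table coincide here, so these differences cannot be told apart from differences of normalization between tables. Each group had 1 library, so a search for libraries that stand apart within a group could not be made.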

How the results depend on the processing

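No paired analysis was possible because the labels carry no replicate numbers; libraries with the same construct were set against each other across tables as ratios, without a test. No result past the threshold changed direction under any alternative run. Without the libraries labelled Dnmt1 (added after seeing the data), genes past the threshold for Tet1CD numbered 1793 with 3 members in the additive model, 2251 with 3 in Vc+ cells, 5 with 0 in Vc- cells, and 262 with 1 for the difference between media, from 4842 with 7, 5319 with 7, 1568 with 3 and 1805 with 4. This alternative also fits fewer libraries. Without the intensity trend the Vc- count was 304 with 1 member. For shp53, 1 gene became 2 (mean of at least 50), 2 (no trend) or 7 (no Dnmt1 term), and its difference between media, 4 genes, became 8 (pseudocount 1) or 2 (no trend). With a pseudocount of 20, the MEF counts were 304 for Tet1-CD, 66 for Dnmt1 and 86 for shDnmt1, against 492, 123 and 166. Without centring, vitamin C gave 413 genes with 1 member, and Vc- over MEF 7 members. The cause of these moves was not tested.

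Leaving out each library in turn gave these ranges of genes, with members after them. Tet1CD had 3701 to 5315 (4 to 8) in the additive model, 2231 to 5450 (3 to 7) in Vc+ and 5 to 2353 (0 to 3) in Vc- cells, and 761 to 2315 (1 to 4) for the difference between media. No member was called for the others, with 0 to 0 genes for Dnmt1, 0 to 3 for shDnmt1, 1 to 5 for shp53, 0 to 59 and 0 to 28 for the differences of shDnmt1 and shp53 between media (2 omissions could not be fitted for shp53), and 0 to 7 for Tet1CD with shDnmt1. Depth is unknown and limits are not computed. The ceiling and the steps of the highest values limit H19 and Igf2 in MEFs and Grb10.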

Other observations

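Among libraries without Tet1CD, the Igf2 over H19 quotient followed the hairpins in a like order in all 3 tables. This pattern was chosen after its values were seen and was not tested. The quotient was highest with shDnmt1 in each table, 1.39 in MEFs, 1.37 in Vc- and 0.932 in Vc+ cells, against 1.10, 1.09 and 0.609 in the Flag+shLuc controls. Among the same libraries it was lowest with shp53+shDnmt1 in each table, 0.670 in MEFs, 0.774 in Vc- and 0.521 in Vc+ cells. With shp53 alone, present in MEFs only, it was 0.869, and in 5C it was 0.389. The libraries labelled Dnmt1 lay at 1.10, 1.09 and 0.671. Among libraries with Tet1CD, the quotient in Vc- cells was 2.11 with Tet1CD+shDnmt1, against 1.32 with Tet1CD alone. In Vc+ cells that order was reversed, with 1.69, against 1.80. In MEFs several of these values rest on shared steps of the highest values, Igf2 having 9988 in 3 of the libraries. Neither gene passed for shDnmt1 or shp53 in the SKOM models.

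The Snrpn row ENSMUSG00000000948 held a small share of the summed Snrpn value in the 5C library, 4.78%, against 22.2% to 34.7% in the 6 MEF libraries and 21.3% to 37.1% in the 14 SKOM libraries. The sum of both rows was 272 in 5C, against 294 to 445 in the MEF libraries. Other imprinted genes apart in 5C were Dcn, with 8059, against 229 in the MEF control, Kcnq1ot1, the antisense RNA of the Cdkn1c cluster, with 632, against 150, and Commd1, with 766, against 108, while Zim1, a neighbour of Peg3, had 1, against 48. Of the 31 listed, 10 were at least 2-fold higher and 6 lower in 5C, where 20.3% and 27.9% of all genes were (48.1% either).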
